A study of Mus musculus with 352 samples.

Results

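The 8 genes described here encode parts of the contractile filaments and Z-disc of fast-twitch muscle fibres, and were followed through 15 groups of mice: Tnni2, Tnnt3, Tnnc2, Mylpf, Myl1, Tpm1, Actn3 and Mybpc2. Their proteins belong to the thin filament (the troponins and Tpm1), the thick filament (Mylpf, Myl1 and Mybpc2) and the Z-disc (Actn3). The list was drawn up by the function of the genes, with earlier results of these data known. Its members were found by their Ensembl gene identifiers and are 8 of the 14413 genes in the table. All 8 had a mean of at least 0 log2 FPKM (fragments per kilobase of exon and sequencing depth) and were tested among 9862 genes. The tissue was tibialis anterior, a mostly fast-twitch muscle of the lower leg, from 352 C57BL/6 mice, 22 to 25 per group, with tissue taken every 4 h at 6 points of the day, given as zeitgeber time (ZT, counted in hours from lights on). RE-RE mice carried Bmal1(stopFL/stopFL), in which a floxed stop cassette blocks the core clock gene Bmal1 (symbol Arntl), together with both Syt10-Cre and Hsa-Cre, which remove the cassette. Br-RE mice carried the blocked gene with Syt10-Cre alone, Mu-RE mice with Hsa-Cre alone, and KO mice with no Cre. WT and Old mice were wild-type. Hsa-Cre is driven by the human skeletal actin promoter in muscle fibres. Syt10-Cre follows synaptotagmin 10, which is expressed in the suprachiasmatic nucleus and other parts of the brain. All 5 genotypes were sampled at 10 to 12 weeks, called 10 weeks here, and at 26 weeks with food ad libitum (ALF). Mu-RE, KO and WT mice of 26 weeks were also kept on time-restricted feeding (TRF), and wild-type mice of 85 to 116 weeks (Old) on TRF or ALF. Where no feeding is named below, mice were on ALF, and the hours of TRF are not given in the sources used here.

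In a sarcomere the thin filament is an actin strand wound with tropomyosin, which carries the troponin complex. Troponin C binds calcium, troponin I holds the filament off and troponin T ties the complex to tropomyosin, so that calcium release lets myosin heads bind actin. The myosin light chains sit on the neck of the myosin head, myosin binding protein C ties the heads to the thick filament backbone, and alpha-actinin crosslinks thin filaments at the Z-disc. Fast and slow fibres use separate genes for most of these proteins, and fast fibres contract and relax faster. Bmal1 forms with Clock the transcription factor that drives the daily clock in most cells.

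Libraries held between 14.76 and 47.79 M recovered reads (median 22.58). Arntl transcript was still present in KO muscle, at 8.14 to 13.8 FPKM in KO mice of 10 weeks, within the 1.72 to 35.4 FPKM of WT mice of 10 weeks. Its group medians were higher in KO mice, at 10.6 to 13.2 FPKM, than in Mu-RE and WT mice, at 6.11 to 8.53 FPKM. In every gene Br-RE and RE-RE mice jointly had the same mean as all other mice of their age to within 1e-05 log2, so these values appear centred, a step not described in the sources used here, and levels were compared only between RE-RE and Br-RE. Libraries also differed in how strongly measured values depended on exon length. This length slope, the change of log2 FPKM per 10-fold exon length relative to each gene's mean, had group medians from -0.20 in KO mice on TRF to 0.13 in RE-RE mice of 10 weeks. WT mice of 26 weeks had a median of 267 kilo-FPKM in the 35 mitochondrial genes, against 128 to 177 kilo-FPKM in the other groups, while the rest of the transcriptome summed to 304 kilo-FPKM, against 271 to 314 kilo-FPKM. Alternative settings named below include scaling each library to its sum of FPKM. In bulk muscle, fewer fibres of a type and less RNA per fibre cannot be told apart.

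All but 1 of the 8 genes were among the most abundant transcripts of the muscle. Tnnt3 (ENSMUSG00000061723), fast troponin T, ranked 6 of the 14413 genes at a mean of 13.47 log2 FPKM (chr7:142498836-142516009, GRCm38, plus strand). Mylpf (ENSMUSG00000030672), the fast regulatory light chain, ranked 11 at 13.03 (chr7:127208890-127214298, plus strand). Tnni2 (ENSMUSG00000031097), fast troponin I, ranked 17 at 12.11 (chr7:142441808-142444410, plus strand), in the same region of chromosome 7 as Tnnt3. Myl1 (ENSMUSG00000061816), the fast essential light chain, ranked 18 at 11.90 (chr1:66924295-66945404, minus strand), and Actn3 (ENSMUSG00000006457), the fast-fibre alpha-actinin, ranked 22 at 11.32 (chr19:4861216-4877909, minus strand). Tpm1 (ENSMUSG00000032366), alpha-tropomyosin, ranked 25 at 11.09 (chr9:67022590-67049406, minus strand). Tpm1 is also used outside fast fibres, in heart and non-muscle cells, and its value here sums all isoforms. Mybpc2 (ENSMUSG00000038670), fast myosin binding protein C, ranked 34 at 10.38 (chr7:44501699-44524656, minus strand). The slow-fibre counterparts of the 8 genes averaged between 0.787 FPKM (Tnni1) and 549.3 FPKM (Mybpc1). Together the 8 genes made up a median of 6.5% to 9.2% of the summed FPKM of a library, by group.

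Tnnc2 (ENSMUSG00000017300), fast troponin C, stood apart at a mean of only 0.86 log2 FPKM, or 1.81 FPKM (rank 8121; chr2:164777161-164779967, minus strand). Of its 800 exon bases, 592 (74%) are shared with exons of Ube2c on the opposite strand, a ubiquitin-conjugating enzyme that had a mean of 0.74 log2 FPKM. How reads on shared exons were handled and whether strand was used are not given in the sources used here. Tnnc2 is therefore uncertain wherever it is named or counted below. None of the other 7 genes shares more than 192 exon bases with another gene.

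The 250 bases before the RefSeq start site (GRCm38.p6) were available for 5 of the 8 genes, and those of Mylpf, Mybpc2 and Tpm1 are shown because these genes changed with genotype at 26 weeks, each in its own way.
Mylpf: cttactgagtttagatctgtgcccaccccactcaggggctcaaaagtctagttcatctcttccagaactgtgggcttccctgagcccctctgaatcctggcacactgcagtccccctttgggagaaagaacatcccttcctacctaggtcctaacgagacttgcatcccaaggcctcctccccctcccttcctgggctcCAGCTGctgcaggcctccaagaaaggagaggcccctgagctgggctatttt
Mybpc2: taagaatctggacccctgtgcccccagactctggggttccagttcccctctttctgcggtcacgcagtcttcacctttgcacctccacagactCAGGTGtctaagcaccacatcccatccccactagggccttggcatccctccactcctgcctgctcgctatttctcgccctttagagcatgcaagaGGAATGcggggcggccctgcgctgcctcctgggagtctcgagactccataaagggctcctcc
Tpm1: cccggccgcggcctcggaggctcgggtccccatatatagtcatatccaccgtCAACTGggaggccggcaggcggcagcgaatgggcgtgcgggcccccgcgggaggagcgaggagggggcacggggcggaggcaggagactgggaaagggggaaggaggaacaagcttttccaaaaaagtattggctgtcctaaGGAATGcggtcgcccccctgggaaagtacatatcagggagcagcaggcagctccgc
Capitals mark CANNTG, the E-box bound by MyoD and its relatives, and CATTCC on either strand (here read as GGAATG), the MCAT site bound by TEAD factors. The windows are chr7:127211358-127211607 on the plus strand for Mylpf, chr7:44524670-44524919 on the minus strand for Mybpc2 and chr9:67049214-67049463 on the minus strand for Tpm1. The Mylpf window holds CANNTG 51 bases before the start and no MCAT site. Mybpc2 holds an MCAT site 62 bases and Tpm1 56 bases before the start, and that of Myl1, not shown, lies at 80 bases. An MCAT site occurs in 12.6% of 27025 mouse promoters of this length, and CANNTG, which includes CACGTG, in 66% of them. The E-box of Clock and Bmal1, CACGTG, was in none of the 5 windows and is in 6.05% of all promoters. AGGTCA, the half-site of the clock repressors REV-ERB, was in none of the 5 and is in 13.8% of all, and TATAAA was in Myl1 alone and is in 13% of all. All motifs were searched on both strands.

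Mylpf varied most of the abundant members between groups. At 10 weeks Mylpf averaged 12.61 ± 0.30 log2 FPKM in RE-RE, 13.20 ± 0.26 in Br-RE, 12.91 ± 0.32 in Mu-RE, 13.26 ± 0.38 in KO and 12.53 ± 0.37 in WT mice (SD, n = 23 to 25 a group). At 26 weeks on ALF it averaged 12.95 ± 0.29 in RE-RE, 13.44 ± 0.26 in Br-RE, 12.98 ± 0.44 in Mu-RE, 13.44 ± 0.58 in KO and 12.95 ± 0.41 in WT mice (SD, n = 22 to 24 a group). KO mice were above Mu-RE and WT mice, and Br-RE above RE-RE mice, at both ages. On TRF it averaged 13.27 ± 0.31 in Mu-RE, 13.74 ± 0.52 in KO and 12.75 ± 0.39 in WT mice, and in Old mice 12.71 ± 0.41 on TRF and 12.85 ± 0.49 on ALF. From the highest group, KO on TRF, to the lowest, WT of 10 weeks, the span was 2.32-fold.

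**Figure D1:**
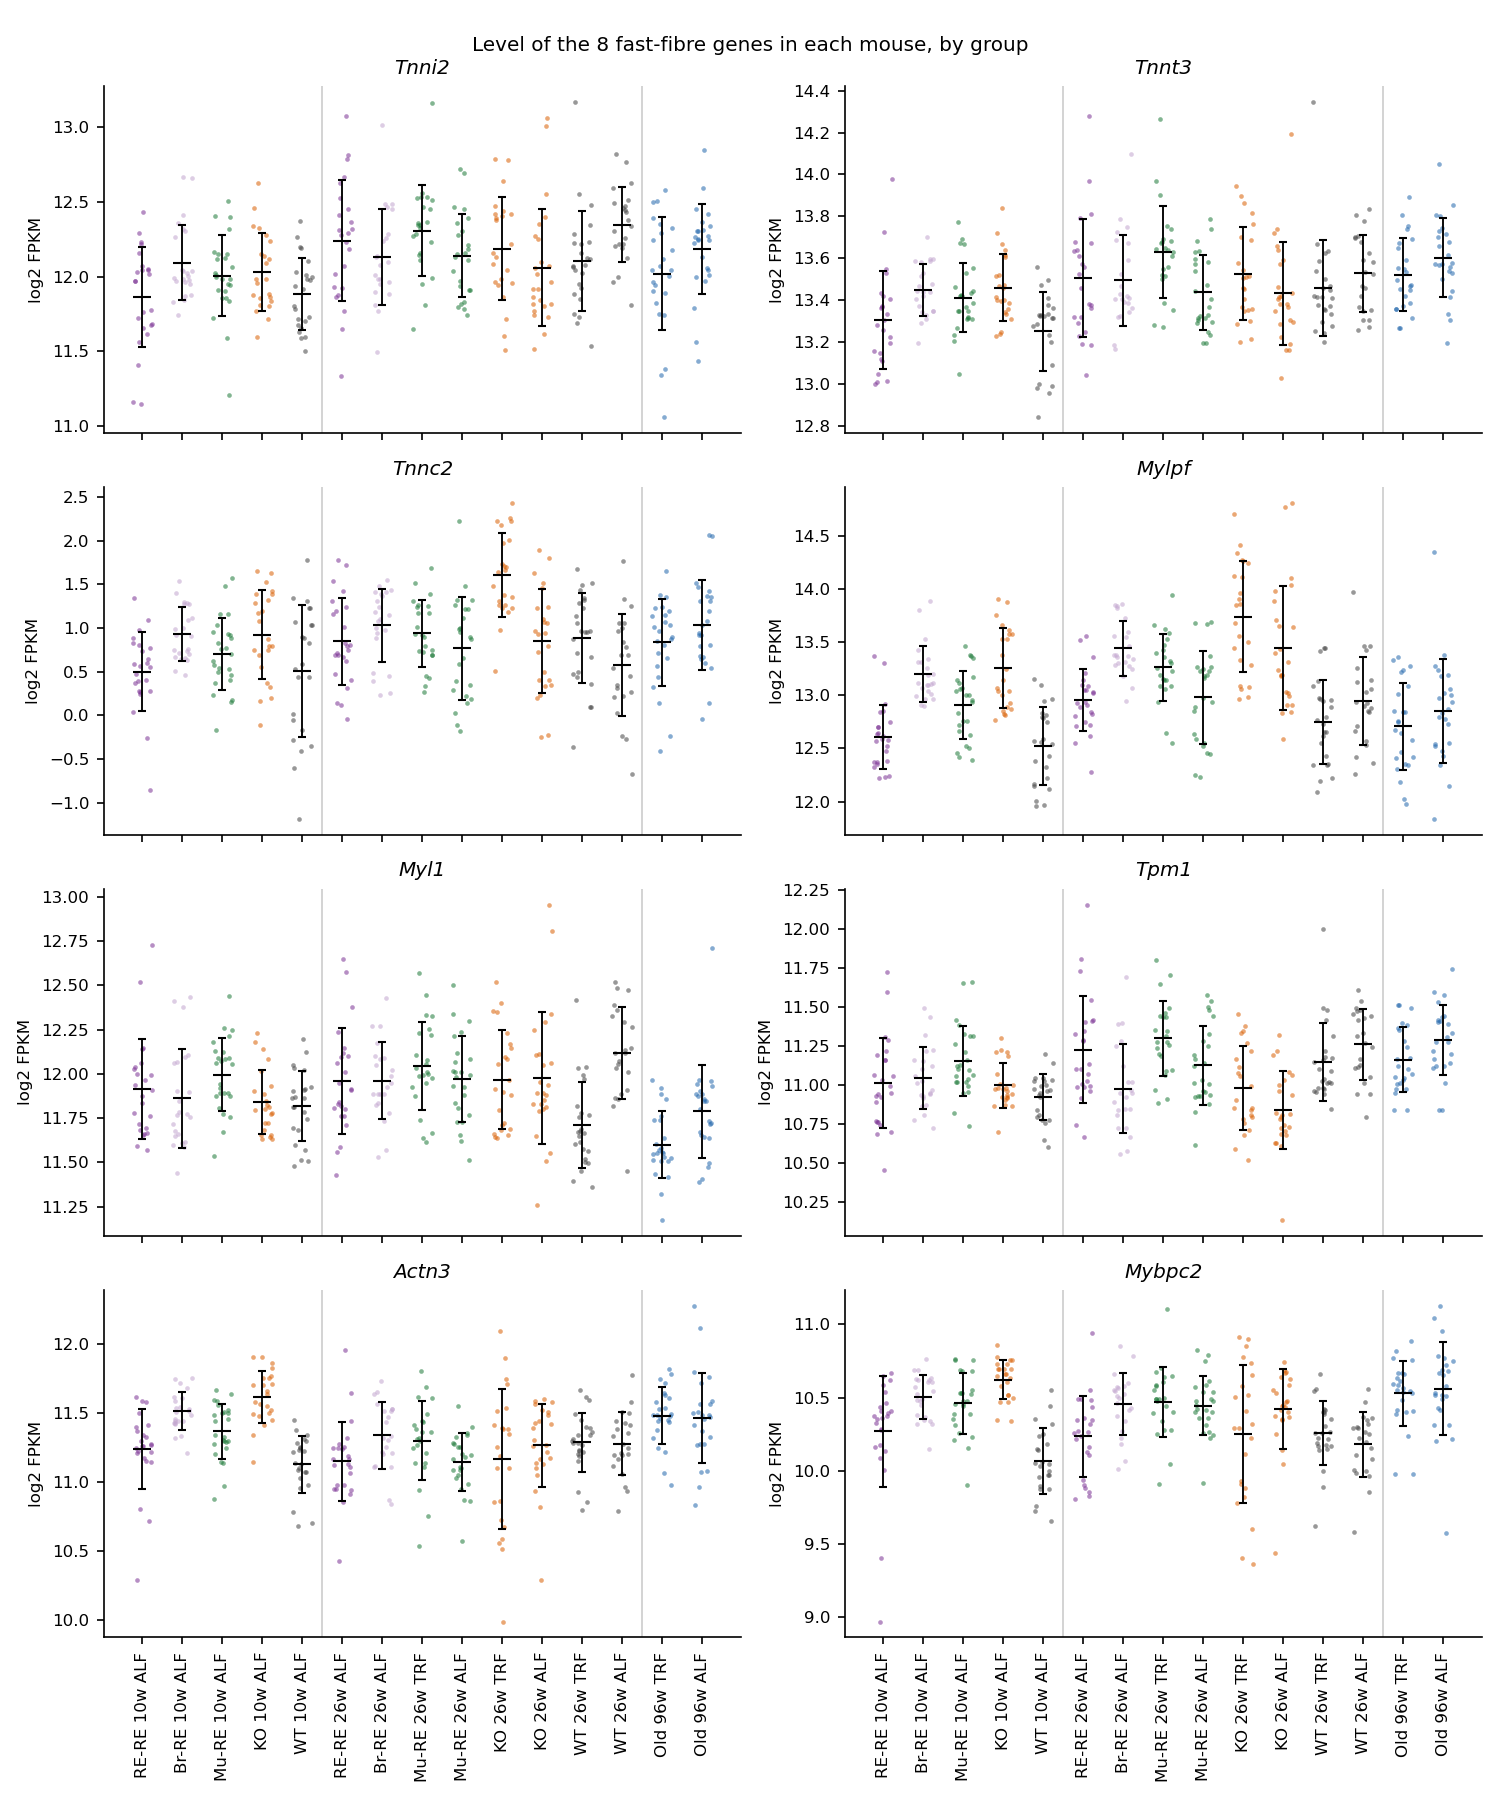
Level (log2 FPKM) of each of the 8 genes in every mouse (points), with the group mean and SD (black), for 15 groups ordered by age and, within an age, by genotype and feeding (96w marks the Old mice). Mylpf is higher in KO than in Mu-RE and WT mice and higher in Br-RE than in RE-RE mice at both ages. Among KO, Mu-RE and WT mice of 10 weeks, Actn3 and Mybpc2 are highest in KO and lowest in WT mice.

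The other abundant members spanned 1.30- to 1.47-fold between their highest and lowest groups. Mybpc2 was highest in KO mice of 10 weeks at 10.62 ± 0.14 log2 FPKM and lowest in WT mice of 10 weeks at 10.07 ± 0.23 (SD, n = 23 each). Actn3 had the same 2 end groups, at 11.62 ± 0.19 in KO mice and 11.13 ± 0.21 in WT mice of 10 weeks. Tpm1 was highest in Mu-RE mice on TRF at 11.30 ± 0.24 and lowest in KO mice of 26 weeks at 10.84 ± 0.25. Tnnt3 was highest in Mu-RE mice on TRF at 13.63 ± 0.22 and lowest in WT mice of 10 weeks at 13.25 ± 0.19. Tnni2 was highest in WT mice of 26 weeks at 12.35 ± 0.25 and lowest in RE-RE mice of 10 weeks at 11.86 ± 0.34, and Myl1 was highest in WT mice of 26 weeks at 12.12 ± 0.26 and lowest in Old mice on TRF at 11.60 ± 0.19. The places of Br-RE and RE-RE mice in these orders depend on that equality of means. The order is graded: no pair of neighbours in the order of any member differed by more than its SD except the top pair of Tnnc2, where KO mice on TRF (1.61 ± 0.48) stood 0.57 above Old mice (1.03 ± 0.51). With each library scaled to its sum of FPKM, Tnnt3, Actn3, Mybpc2 and Tnnc2 were instead lowest in WT mice of 26 weeks. Under that scaling Tnni2 was highest in Mu-RE mice on TRF and lowest in WT mice of 10 weeks, Myl1 was highest in Mu-RE mice of 10 weeks, and Tnnt3 was highest in Old mice on TRF.

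Loss of Bmal1 was compared with wild type at 10 weeks, and 5 of the 8 genes were higher in KO muscle: Mylpf, Mybpc2, Actn3, Tnnt3 and the uncertain Tnnc2. None was lower. Of all genes tested, 20.3% were higher and 21.6% lower at an adjusted p under 0.05 (limma with Benjamini-Hochberg adjustment over 9862 genes, used for every adjusted p below). The median difference of the 8 genes was 0.33 on the log2 scale, against -0.00175 over all genes. Mylpf ranged from 12.77 to 13.91 log2 FPKM with a median of 13.15 in KO mice, against 11.96 to 13.15 with a median of 12.56 in WT mice. The groups overlapped, but all 23 KO mice lay above the WT median and 11 lay above every WT mouse. The difference was 0.73 on the log2 scale (SE 0.11, 1.66-fold, adjusted p = 7.57e-07).

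Mybpc2, like Mylpf and Myl1 of the thick filament, ranged from 10.34 to 10.86 log2 FPKM with a median of 10.66 in KO mice. In WT mice of 10 weeks it ranged from 9.65 to 10.55 with a median of 10.04. Here 16 of 23 KO mice exceeded every WT mouse, and the difference was 0.57 on the log2 scale (SE 0.05, 1.48-fold, adjusted p = 2.80e-12). Actn3 of the Z-disc ranged from 11.15 to 11.91 with a median of 11.64 in KO mice, against 10.68 to 11.45 with a median of 11.14 in WT mice. As many as 19 of 23 KO mice exceeded every WT mouse, and Actn3 was 0.50 higher on the log2 scale (SE 0.06, 1.41-fold, adjusted p = 2.25e-09). Each of these 3 genes stayed called under all 12 alternative settings.

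The remaining members, from the thin filament and, with Myl1, the thick filament, moved less at 10 weeks. Tnnt3 ranged from 13.23 to 13.84 log2 FPKM with a median of 13.42 in KO mice, against 12.84 to 13.56 with a median of 13.32 in WT mice, groups that overlapped widely. It was 0.21 higher on the log2 scale in KO mice (SE 0.05, 1.16-fold, adjusted p = 0.000674). Tnnc2 was 0.44 higher (SE 0.18, adjusted p = 0.0406), and no KO mouse exceeded every WT mouse. The call of Tnnc2 held in 7 of 12 alternative settings and had an adjusted p of 0.0503 with the length slope in the fit. Tnni2 (difference 0.14, SE 0.07), Tpm1 (0.08, SE 0.05) and Myl1 (0.03, SE 0.06) did not pass the test, with adjusted p of 0.118, 0.151 and 0.747 by limma.

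**Figure D2:**
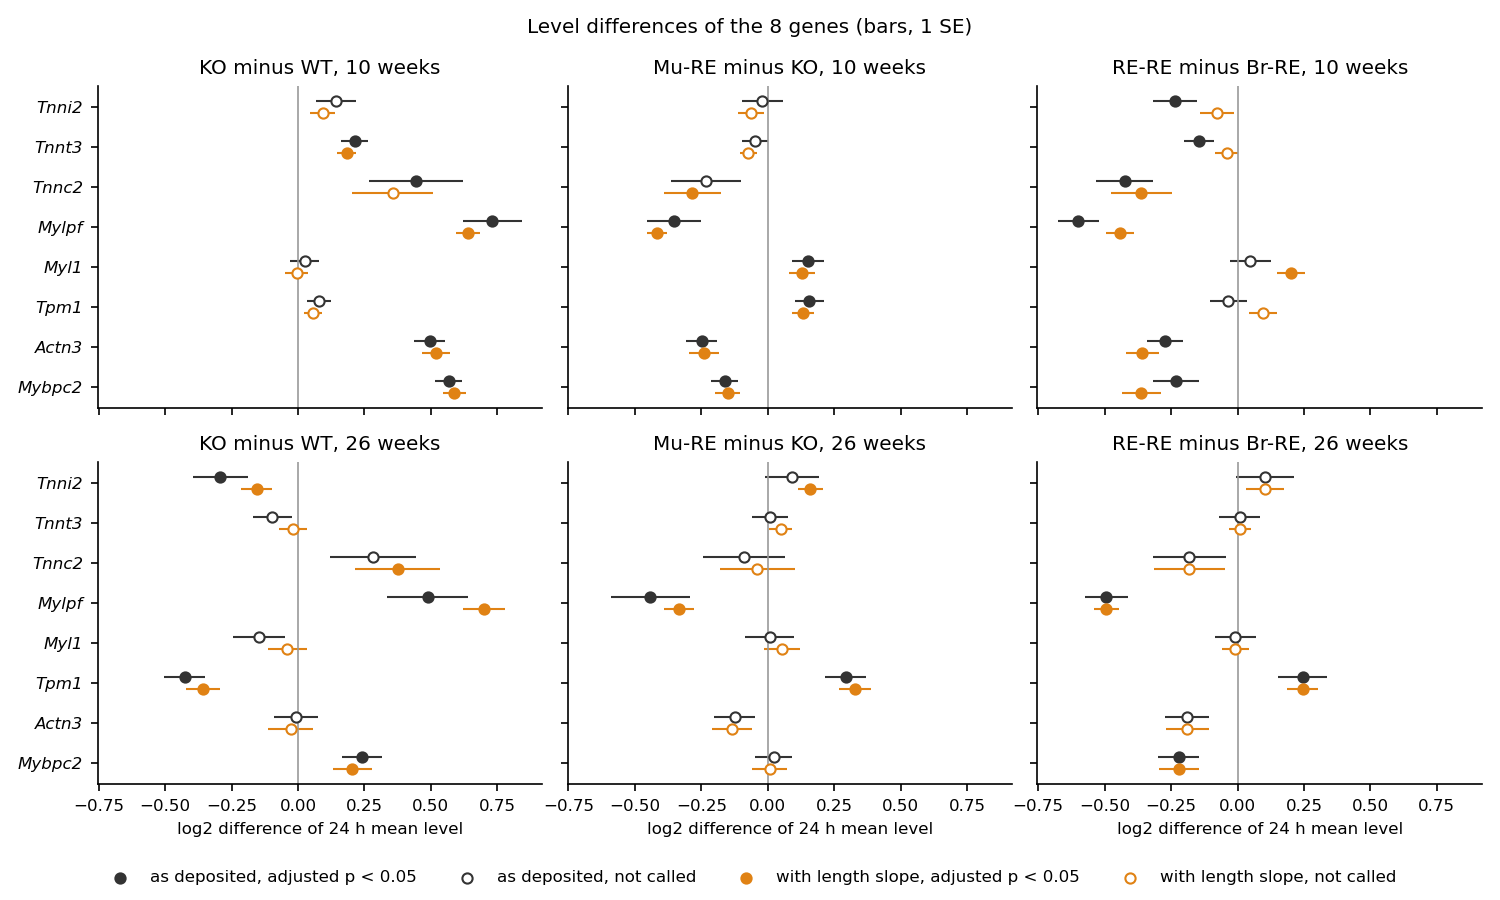
Difference in 24 h mean level (log2, horizontal axis) of the 8 genes in KO against WT, Mu-RE against KO and RE-RE against Br-RE mice at 10 and 26 weeks; bars are 1 SE, filled points have an adjusted p under 0.05, and orange points come from a fit with the length slope of each library. Mylpf lies right of 0 in KO mice and left of 0 wherever muscle Bmal1 was restored, at both ages and in both fits.

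At 26 weeks the picture in KO muscle was mixed: Mylpf and Mybpc2 were higher, and Tpm1 and Tnni2 were lower. Of all genes 24.4% were higher and 22% lower, and the median of the 8 genes was -0.05, against 0.00351 over all genes. Mylpf ranged from 12.59 to 14.81 log2 FPKM with a median of 13.27 in KO mice, against 12.26 to 13.97 with a median of 12.92 in WT mice. Although the ranges overlapped, 19 of 24 KO mice lay above the WT median, and the difference was 0.49 on the log2 scale (SE 0.15, 1.40-fold, adjusted p = 0.00744). Mybpc2 ranged from 9.44 to 10.75 with a median of 10.45 in KO mice, against 9.58 to 10.56 with a median of 10.24 in WT mice. Of the KO mice 21 of 24 lay above the WT median, a difference of 0.24 (SE 0.08, 1.18-fold, adjusted p = 0.00876). The call of Mylpf was lost when animal 4 of each time point was left out (0.35, adjusted p = 0.0968) and that of Mybpc2 when animal 1 was left out (0.21, adjusted p = 0.10).

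Tpm1, the tropomyosin, ranged from 10.13 to 11.32 log2 FPKM with a median of 10.80 in KO mice, against 10.79 to 11.61 with a median of 11.29 in WT mice of 26 weeks. All but 1 of the 24 KO mice lay below the WT median and 11 lay below every WT mouse. The difference was -0.43 on the log2 scale (SE 0.08, 0.74-fold, adjusted p = 1.35e-05), and the call held in all 11 alternative settings. Tnni2 was lower by a difference of -0.29 (SE 0.10, adjusted p = 0.0186), with 20 of 24 KO mice below the WT median, but scaling to the library sum moved it to -0.04 (adjusted p = 0.658), and its call was lost when animal 1 (-0.21, adjusted p = 0.243) or animal 2 (-0.25, adjusted p = 0.11) of each time point was left out. Actn3 differed by -0.01 (SE 0.08, adjusted p = 0.955), a sign that turned to 0.24 with an adjusted p of 0.0357 under that scaling. It raises the median of all genes in this comparison by 0.25, and under it 4 members were higher and 1 lower. Over all genes the calls were then 5380 higher and 671 lower, against 2406 higher and 2165 lower without it. Myl1, Tnnt3 and Tnnc2 did not pass the test, with differences of -0.15, -0.10 and 0.28.

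The effect of genotype differed between the ages, tested as the KO minus WT difference at 26 weeks less that at 10 weeks. The interaction was called for 5 of the 8 genes, all negative, against 18.8% of all genes. It was -0.51 for Tpm1 (SE 0.09, adjusted p = 8.64e-06) and -0.50 for Actn3 (SE 0.10, adjusted p = 0.000119). For Tnni2 it was -0.43 (SE 0.13, adjusted p = 0.00888), for Mybpc2 -0.32 (SE 0.09, adjusted p = 0.00681) and for Tnnt3 -0.31 (SE 0.09, adjusted p = 0.00611). Mylpf gave -0.24 (SE 0.19, adjusted p = 0.409), and Tnnc2 (-0.16) and Myl1 (-0.17) did not pass the test either. Under scaling to the library sum the calls of Tpm1 and Actn3 held and the other 3 were lost. Among KO mice alone, Actn3 was lower at 26 than at 10 weeks by a difference of -0.35 (SE 0.08, adjusted p = 0.000606), with all 24 older mice below the median of the younger, and so was Mybpc2 (-0.20, SE 0.07, adjusted p = 0.0205). The call of Mybpc2 was lost whichever animal number was left out (adjusted p from 0.0567 to 0.0897). They were the 2 members called between KO ages, against 10.4% of all genes lower. Tpm1 (-0.16), Tnnc2 (-0.07), Tnnt3 (-0.03), Tnni2 (0.03), Myl1 (0.13) and Mylpf (0.18) did not pass the test.

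Restoring Bmal1 in muscle was compared with KO, using the same KO mice as the comparisons with WT above, so the results are not independent of each other. At 10 weeks Mylpf, Actn3 and Mybpc2 were lower in Mu-RE than in KO mice, and Tpm1 and Myl1 were higher. Of all genes 17.4% were higher and 17.2% lower, and the median of the 8 genes was -0.10, against -0.00082 over all genes. Mylpf ranged from 12.39 to 13.46 log2 FPKM with a median of 12.96 in Mu-RE mice, against 12.77 to 13.91 with a median of 13.15 in KO mice. Although the ranges overlapped, 20 of 25 Mu-RE mice lay below the KO median, and the difference was -0.35 (SE 0.10, 0.78-fold, adjusted p = 0.00553), lost when animal 4 of each time point was left out (-0.29, adjusted p = 0.0578). Actn3 was lower by a difference of -0.25 (SE 0.06, adjusted p = 0.000704; 23 of 25 mice below the KO median), called in all 11 alternative settings. Mybpc2 differed by -0.16 (SE 0.05, adjusted p = 0.0109), Tpm1 by 0.16 (SE 0.05, adjusted p = 0.0205) and Myl1 by 0.15 (SE 0.06, adjusted p = 0.0425). Tnnc2 (-0.23), Tnnt3 (-0.05) and Tnni2 (-0.02) did not pass the test. Myl1 was called in 5 of 11 alternative settings only. Leaving out animal 1, 2 or 3 of each time point ended the call of Tpm1 (adjusted p from 0.0552 to 0.117), and leaving out animal 2 or 3 that of Mybpc2 (adjusted p of 0.0962 and 0.0537).

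At 26 weeks 1 member was lower and 1 higher in Mu-RE than in KO mice, against 16.6% and 17.3% of all genes. Mylpf ranged from 12.23 to 13.69 log2 FPKM with a median of 13.07 in Mu-RE mice, against 12.59 to 14.81 with a median of 13.27 in KO mice, and 20 of 24 Mu-RE mice lay below the KO median. The difference was -0.44 (SE 0.15, 0.74-fold, adjusted p = 0.0178), lost when animal 2 (adjusted p = 0.0853) or animal 4 (adjusted p = 0.104) of each time point was left out. Tpm1 ranged from 10.61 to 11.57 with a median of 11.08 in Mu-RE mice, against 10.13 to 11.32 with a median of 10.80 in KO mice. Of the Mu-RE mice 23 of 24 lay above the KO median, a difference of 0.29 (SE 0.08, 1.23-fold, adjusted p = 0.00235) that was called in all 11 alternative settings. Actn3 (-0.13, SE 0.08), Tnnc2 (-0.09, SE 0.15), Mybpc2 (0.02, SE 0.07), Tnni2 (0.09, SE 0.10), Tnnt3 (0.01, SE 0.07) and Myl1 (0.01, SE 0.09) did not pass the test at this age.

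Compared with wild type, Mu-RE muscle was higher in 6 of the 8 genes at 10 weeks, against 12.6% of all genes. The differences were 0.40 for Mybpc2 (SE 0.06, adjusted p = 1.57e-06), 0.37 for Mylpf (SE 0.09, adjusted p = 0.00256) and 0.25 for Actn3 (SE 0.06, adjusted p = 0.00148). Tpm1 differed by 0.23, Myl1 by 0.17 and Tnnt3 by 0.16, with adjusted p of 0.00121, 0.0237 and 0.0115. Tnni2 (0.12) and Tnnc2 (0.20) did not pass the test, and 2 members were called when animal 3 of each time point was left out. At 26 weeks Mybpc2 alone was called, 0.26 higher in Mu-RE than in WT mice (SE 0.06, adjusted p = 0.000654; 22 of 24 mice above the WT median), against 16.4% of all genes. Mylpf differed by 0.04 (SE 0.13) there, with 12.98 ± 0.44 in Mu-RE mice and 12.95 ± 0.41 in WT mice (SD, n = 24 and 22). Tnni2 (-0.21, adjusted p = 0.0531), Myl1 (-0.15), Tpm1 (-0.14), Actn3 (-0.13), Tnnt3 (-0.09) and Tnnc2 (0.19) did not pass the test. With the length slope in the fit, Mylpf was instead 0.36 higher (SE 0.08, adjusted p = 0.000951).

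Adding muscle to brain re-expression was tested as RE-RE against Br-RE, whose libraries appear centred together. At 10 weeks 6 of the 8 genes were lower in RE-RE mice and none was higher, against 17.4% of all genes lower and 14.8% higher, and the median of the 8 was -0.23, against -0.01 over all genes. Mylpf ranged from 12.22 to 13.37 log2 FPKM with a median of 12.59 in RE-RE mice, against 12.90 to 13.89 with a median of 13.11 in Br-RE mice. Of 24 RE-RE mice 21 lay below every Br-RE mouse, the clearest separation among the members in the comparisons of genotype, and the difference was -0.60 (SE 0.08, 0.66-fold, adjusted p = 2.65e-08). The uncertain Tnnc2 differed by -0.43, Actn3 by -0.27, Tnni2 by -0.24, Mybpc2 by -0.23 and Tnnt3 by -0.15. The calls of Tnni2 (adjusted p = 0.0270) and Tnnt3 (adjusted p = 0.0490) were lost with the length slope in the fit, and Myl1, at 0.05 (SE 0.08), was then called 0.20 higher. Tpm1 differed by -0.03 and was not called. Without animal 3 of each time point 2 members were called and without animal 4 there were 3, and the replicate block left 4, ending the calls of Tnni2 and Tnnt3.

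At 26 weeks Mylpf was again lower in RE-RE than in Br-RE mice. It ranged from 12.28 to 13.56 log2 FPKM with a median of 12.93 in RE-RE mice, against 12.95 to 13.85 with a median of 13.38 in Br-RE mice. Of 24 RE-RE mice 13 lay below every Br-RE mouse, and the difference was -0.49 (SE 0.08, 0.71-fold, adjusted p = 2.85e-06). Mybpc2 was lower too (-0.22, SE 0.08, adjusted p = 0.0218) and Tpm1 higher (0.24, SE 0.09, adjusted p = 0.0330), against 18.9% of all genes lower and 16.5% higher. Without animal 1 of each time point both were lost (adjusted p of 0.0741 for Mybpc2 and 0.422 for Tpm1), as they were without animal 4 (0.0858 and 0.188), and without animal 2 Mybpc2 was lost (0.195). Scaling to the library sum called 6 members, all lower, and put Tpm1 at 0.09 (adjusted p = 0.247). Actn3 (-0.19, SE 0.08), Tnnc2 (-0.18, SE 0.14), Tnni2 (0.10, SE 0.11), Tnnt3 (0.01, SE 0.08) and Myl1 (-0.01, SE 0.08) did not pass the test. Whether the effect of muscle re-expression depended on brain re-expression was tested as an interaction over the 4 genotypes. By limma it was called for 0 of the 8 genes at 10 weeks and 0 at 26 weeks, with 1 member at each age under an unadjusted p of 0.05. Of all genes 0.0203% were called at 10 weeks and 0% at 26 weeks, where 537 of the 9862 genes had an unadjusted p under 0.05. The interaction of Mylpf was -0.25 (SE 0.13) at 10 weeks and -0.04 (SE 0.17) at 26 weeks.

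In wild-type muscle 5 of the 8 genes were higher at 26 than at 10 weeks: Tnni2, Mylpf, Tpm1, Myl1 and Tnnt3. Of all genes 20.9% were higher. Tnni2 ranged from 11.81 to 12.82 log2 FPKM with a median of 12.36 at 26 weeks, against 11.50 to 12.38 with a median of 11.92 at 10 weeks. The ranges overlapped, but 21 of 22 older mice exceeded the median of the younger, and the difference was 0.46 (SE 0.08, 1.38-fold, adjusted p = 2.14e-05). Mylpf differed by 0.42 (SE 0.12), Tpm1 by 0.34 (SE 0.06), Myl1 by 0.30 (SE 0.07) and Tnnt3 by 0.28 (SE 0.06), with adjusted p of 0.00510 or less. Actn3 (0.15), Mybpc2 (0.12) and Tnnc2 (0.09) did not pass the test. These directions depend on the scaling. When each library was scaled to its sum of FPKM, which moves the median of all genes by -0.30 here, none of the 5 was called, Tnnt3 (-0.03) and Myl1 (-0.02) changed sign, and Actn3 and Mybpc2 were called lower by differences of -0.16 and -0.19. Over all genes 99 were then higher and 6912 lower, against 2063 and 1587 without the scaling.

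Old mice were compared with WT mice of 26 weeks, the nearest wild-type group on the same feeding. Mybpc2 and Tnnc2 were higher and Myl1 was lower in Old mice, against 12.9% of all genes higher and 11.2% lower. Mybpc2 ranged from 9.58 to 11.13 log2 FPKM with a median of 10.56 in Old mice, against 9.58 to 10.56 with a median of 10.24 in WT mice of 26 weeks. The ranges overlapped, with 12 of 24 Old mice above every WT mouse, and the difference was 0.38 (SE 0.08, 1.30-fold, adjusted p = 0.000981). Myl1 ranged from 11.39 to 12.71 with a median of 11.82 in Old mice, against 11.45 to 12.52 with a median of 12.12 in WT mice, and 23 of 24 Old mice lay below the WT median. Its difference was -0.33 (SE 0.08, 0.80-fold, adjusted p = 0.00232). Under the library sum scaling it was -0.11 with an adjusted p of 0.148, and 5 members were called higher and none lower, with 5080 genes higher and 236 lower in all, against 1277 and 1106 without it. The uncertain Tnnc2 differed by 0.46 (SE 0.16, adjusted p = 0.0347), and Actn3 (0.19), Tnnt3 (0.08), Tpm1 (0.03), Mylpf (-0.09) and Tnni2 (-0.16) did not pass the test.

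Time-restricted feeding left most of the 8 genes without a call. In WT mice of 26 weeks 2 were lower on TRF, against 20.1% of all genes. Myl1 ranged from 11.36 to 12.41 log2 FPKM with a median of 11.67 on TRF, against 11.45 to 12.52 with a median of 12.12 on ALF. All but 1 of the 24 TRF mice lay below the ALF median, and the difference was -0.41 (SE 0.07, 0.75-fold, adjusted p = 6.30e-05). Tnni2 differed by -0.24 (SE 0.09, adjusted p = 0.0241) and turned to 0.10, not called, under the library sum scaling. Mylpf (-0.19), Tpm1 (-0.12), Tnnt3 (-0.07), Actn3 (0.01), Mybpc2 (0.08) and Tnnc2 (0.30) did not pass the test. That scaling moves the median of all genes by 0.34 in this comparison, leaves Myl1 at -0.07 (adjusted p = 0.258) and calls 5 members higher and none lower, Tnnt3 (0.27) and Tpm1 (0.22) among them. In all 7357 genes were then higher and 143 lower, against 2065 and 1978 without it.

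In KO mice only Tnnc2 was called, a gene uncertain for its exons shared with Ube2c. It lay at 0.50 to 2.43 log2 FPKM with a median of 1.64 on TRF, against -0.25 to 1.90 with a median of 0.94 on ALF. Of 23 TRF mice 22 lay above the ALF median, and the difference was 0.74 (SE 0.14, 1.68-fold, adjusted p = 0.000815), against 4.78% of all genes higher. Mylpf (0.30), Tpm1 (0.14), Tnni2 (0.13), Tnnt3 (0.10), Myl1 (-0.01), Actn3 (-0.10) and Mybpc2 (-0.17) did not pass the test. In Mu-RE mice Tnnt3 alone was called, 0.19 higher on TRF (SE 0.06, adjusted p = 0.0292), against 9.05% of all genes, and with the length slope it had an adjusted p of 0.207. Mylpf (0.29), Tpm1 (0.17), Tnni2 (0.17), Tnnc2 (0.17), Actn3 (0.15), Myl1 (0.08) and Mybpc2 (0.02) did not pass the test. In Old mice none of the 8 was called by limma and 1, Myl1, had an unadjusted p under 0.05 (-0.19, SE 0.07), against 0.142% of all genes called. The other 7 lay between -0.19 (Tnnc2) and 0.01 (Actn3). The response to feeding differed between KO and WT mice for Myl1 (difference of differences 0.40, SE 0.12, adjusted p = 0.0134) and Tnni2 (0.37, SE 0.14, adjusted p = 0.0402), against 27.5% of all genes. With the length slope in the fit the values were 0.10 and -0.04 and neither was called. Scaling to the library sum also ended both calls (Myl1 0.13, adjusted p = 0.239; Tnni2 0.10, adjusted p = 0.489), and under it Actn3 (-0.37, adjusted p = 0.0260) and Mybpc2 (-0.51, adjusted p = 0.00358) were called instead, with the opposite sign. Between Old and WT mice of 26 weeks the response to feeding was called by limma for none of the 8 genes, of which 2 had an unadjusted p under 0.05, against 2.1% of all genes called.

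Day-night rhythm was tested with limma's F test of a 24 h cosine. In 13 of the 15 groups no member was called, and 5 of those 104 tests had an unadjusted p under 0.05. In these groups 0% to 6.97% of all genes were called, so a count of 0 among 8 genes is near the share over all genes. In WT mice of 10 weeks, where 5.84% of all genes were rhythmic, Tnnt3 (amplitude 0.15 on the log2 scale, SE 0.05, adjusted p = 0.122) and Mybpc2 (0.16, SE 0.06, adjusted p = 0.198) had the smallest p. With the length slope in the fit, Mybpc2 was called in that group (amplitude 0.19, adjusted p = 0.0460). In WT mice on TRF, the group with the most rhythmic genes (37.8%), Tpm1 was called alone. Tpm1 averaged 11.43 ± 0.40 log2 FPKM at ZT 12 and 11.36 ± 0.16 at ZT 16, against 10.98 ± 0.10 at ZT 0 and 10.99 ± 0.04 at ZT 8 (SD, 4 mice per time). Its amplitude was 0.23 (SE 0.06, 1.37-fold from trough to peak, peak at ZT 14.1, adjusted p = 0.0184). The length slope of these libraries was also lowest at ZT 12, at -0.19 ± 0.35, and with the slope in the fit Tpm1 had an adjusted p of 0.0693.

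In Br-RE mice of 10 weeks 6 of the 8 genes were called: Mylpf, Myl1, Tnni2, Tpm1, Mybpc2 and Tnnt3. In this group 29% of all genes were rhythmic. Tnni2 averaged 12.21 ± 0.21 log2 FPKM at ZT 0, 12.39 ± 0.34 at ZT 4, 12.09 ± 0.19 at ZT 8, 12.02 ± 0.22 at ZT 12, 11.92 ± 0.07 at ZT 16 and 11.94 ± 0.13 at ZT 20 (SD, 3 mice at ZT 8 and 4 at the other times). Tpm1 followed the same course, from a highest mean of 11.30 ± 0.19 at ZT 4 to a lowest of 10.84 ± 0.11 at ZT 16. Fitted amplitudes were 0.24 for Mylpf and Myl1, 0.22 for Tnni2, 0.19 for Tpm1 and 0.11 for Tnnt3, with peaks between ZT 3.3 and ZT 3.9 and adjusted p from 0.00720 to 0.0425. Mybpc2 had an amplitude of 0.14 with its peak in the opposite phase, at ZT 16.8 (adjusted p = 0.0284).

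The length slope of the Br-RE libraries moved with the same times. It averaged -0.20 ± 0.06 at ZT 4 and 0.09 ± 0.05 at ZT 16 (SD, n = 4 each). With the slope in the fit 0 of the 8 genes were called rhythmic in this group, and 1.67% of all genes were. Without animal 2 of each time point 0 of the 8 were called, and without animal 3 1 was. The share of genes called rhythmic elsewhere was 0.69% in Br-RE mice of 26 weeks, 0.588% and 0.76% in RE-RE mice of 10 and 26 weeks, 0.071% in Mu-RE and 0.071% in KO mice of 10 weeks, and 0% in Mu-RE and KO mice of 26 weeks, where 1253 and 596 genes had an unadjusted p under 0.05. It was 6.97% in Mu-RE and 6.2% in KO mice on TRF, 5.71% and 1.41% in Old mice on TRF and ALF, and 1.04% in WT mice of 26 weeks. A difference in rhythm was called by limma's F test for none of the 8 genes in the 3 contrasts tested, and none had an unadjusted p under 0.05. Those contrasts were KO against WT at 10 weeks (0.517% of all genes), KO against WT at 26 weeks (0.172%) and RE-RE against Br-RE at 10 weeks (0.152%).

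**Figure D3:**
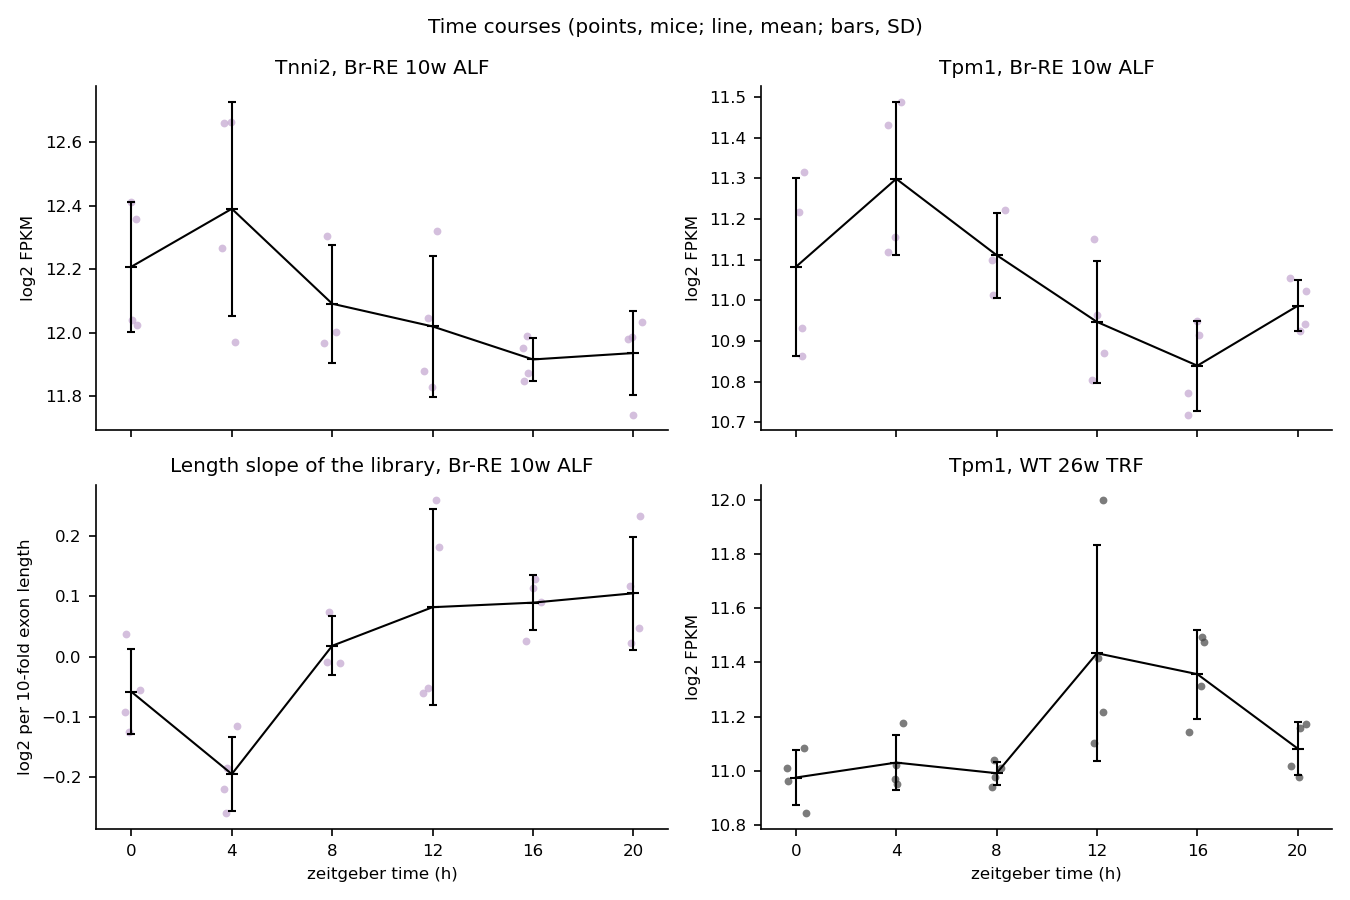
Tnni2 and Tpm1 (log2 FPKM) and the length slope of the library (log2 per 10-fold exon length) by zeitgeber time in Br-RE mice of 10 weeks, and Tpm1 in WT mice of 26 weeks on TRF; points are mice, lines join means and bars are SD. In Br-RE mice both genes are highest at ZT 4, where the length slope is lowest.

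Among mice of the same group and time the 8 genes did not vary as 1 block. Over the 352 libraries, as deviations from the mean of their group and time, Tnni2 correlated with Mylpf at a Pearson r of 0.82 and with Tnnt3 at 0.79, Tnnt3 with Tpm1 at 0.85 and Myl1 with Tpm1 at 0.78. Actn3 and Mybpc2 formed a pair of their own (r = 0.86), and each lay between -0.23 and 0.24 with the other members. These points share their libraries, and the first set followed the length slope: Mylpf, with 1062 exon bases, correlated with it at -0.87, Tnni2 (1497 bases) at -0.80, Tnnt3 (1583 bases) at -0.72, Myl1 (2074 bases) at -0.66 and Tpm1 at -0.57. Tpm1 has 6485 exon bases over all its isoforms. Actn3, with 2901 bases, and Mybpc2, with 3611, correlated with the slope at 0.18 and 0.27, and Tnnc2 at -0.29. The part of the slope in the joint variation was not tested beyond the fits that hold it.

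**Figure D4:**
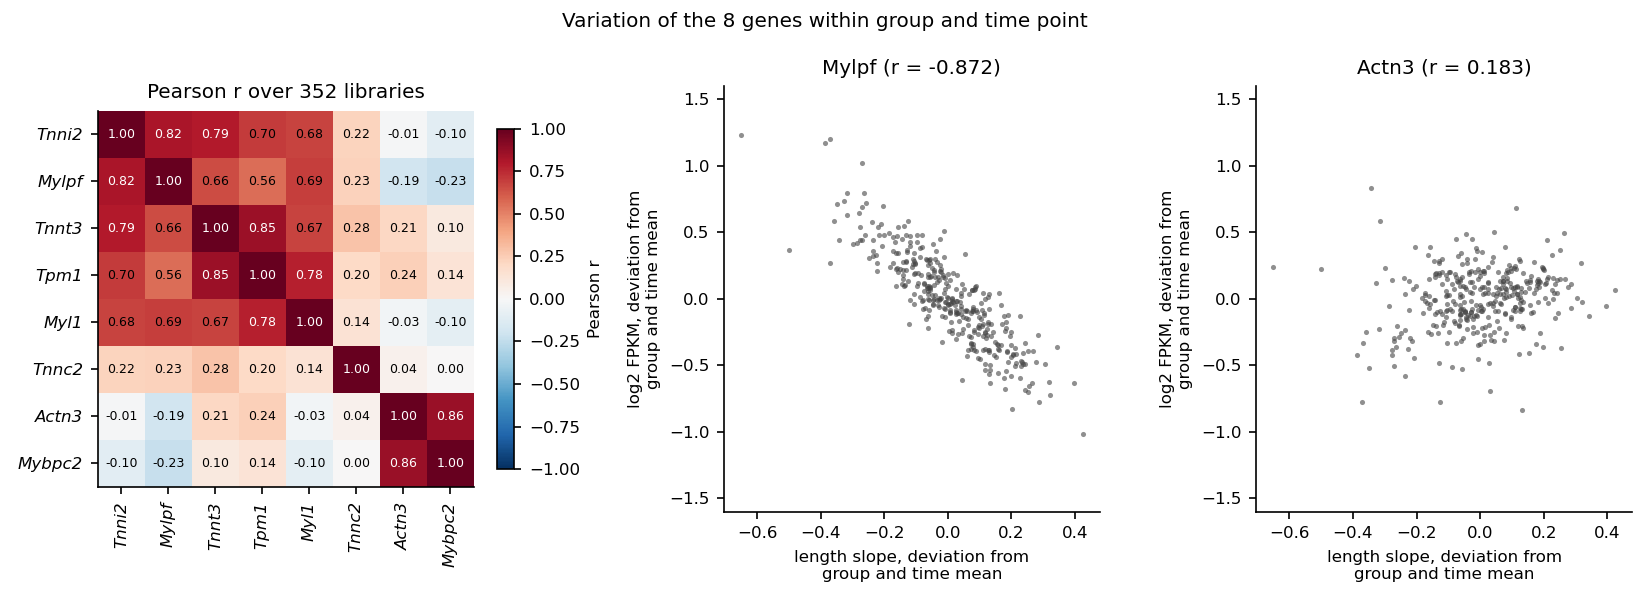
Left, Pearson r between the 8 genes over 352 libraries, as deviations from the mean of the group and time; middle and right, the deviation of Mylpf and Actn3 (log2 FPKM) against that of the library's length slope (log2 per 10-fold exon length). Mylpf follows the slope (r = -0.872) and Actn3 scarcely does (r = 0.183).

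For Mylpf the genotype differences remained with the slope held in the fit. KO exceeded WT by 0.64 at 10 weeks (SE 0.05, adjusted p = 2.09e-15) and by 0.70 at 26 weeks (SE 0.08, adjusted p = 4.72e-10). Mu-RE minus KO was then -0.42 at 10 and -0.33 at 26 weeks, and RE-RE minus Br-RE -0.44 and -0.49, each called. Actn3 and Mybpc2 likewise kept their KO calls at 10 weeks, at 0.52 and 0.59.

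Each fast gene was set beside a counterpart listed as a slow-fibre gene, and 7 of these 8 were abundant enough to test. Mybpc1 (549.3 FPKM) and Actn2 (293.8 FPKM) stood far above the rest (0.787 to 37.6 FPKM), and Actn2 is used in all fibre types. Neither of these is read here as a measure of slow fibres alone. In KO mice of 10 weeks 3 of the 7 were lower than in WT mice and none was higher, against 21.6% of all genes lower: Mybpc1, slow myosin binding protein C, by a difference of -0.82 (SE 0.08, adjusted p = 2.15e-11), Tnnc1, slow troponin C, by -0.40, and Myl3, the slow essential light chain, by -0.33. The log2 ratio of Mybpc2 to Mybpc1 was 2.25 ± 0.35 in KO mice and 0.87 ± 0.32 in WT mice of 10 weeks (SD, n = 23 each), and 1.58 ± 0.31 in KO mice and 1.05 ± 0.37 in WT mice of 26 weeks (SD, n = 24 and 22). At 26 weeks Actn2, the alpha-actinin of all fibre types, was 0.98 higher in KO mice (SE 0.13, adjusted p = 2.10e-08) and Myl2, the slow regulatory light chain, 1.55 higher (SE 0.22, adjusted p = 2.18e-07), while Mybpc1 was lower (-0.29). Tnnt1 (-0.29), Myl3 (-0.26), Tnnc1 (-0.02) and Tpm3 (0.04) were not called between these groups. Mean log2 ratios of the fast to slow pairs went both ways at this age. They were higher in KO than in WT mice for Tnnt3 to Tnnt1 (12.26 and 12.05), Tnnc2 to Tnnc1, Myl1 to Myl3 and Mybpc2 to Mybpc1. They were lower for Tnni2 to Tnni1 (11.87 and 12.92), Actn3 to Actn2, Tpm1 to Tpm3 and Mylpf to Myl2. The log2 ratio of Mylpf to Myl2 was 9.91 ± 0.73 in KO mice and 10.96 ± 0.89 in WT mice of 26 weeks, although Mylpf itself was higher. Mu-RE mice of 26 weeks had a similar ratio to KO mice, 9.97 ± 0.76. Against WT mice of that age they had Myl2 1.04, Tnnc1 0.72, Mybpc1 0.54, Actn2 0.54 and Tpm3 0.22 higher, all called. Myl3 was lower there (-0.43, called), and Tnnt1 (0.37) was not called. Of all genes 16.4% were higher in that comparison. Against KO mice Actn2 was lower in Mu-RE mice (-0.46, called), and Myl2 (-0.53) was not called (limma, adjusted p = 0.05002). Tnnc1 (0.76) and Tnnt1 (0.68) were higher, both called, and Tpm3 (0.18) and Myl3 (-0.18) were not called. At 10 weeks Tnnc1 (0.76) and Tnnt1 (0.40) were also higher and Actn2 (-0.47) lower in Mu-RE than in KO mice, all called. Of all genes 17.3% were higher and 16.6% lower at 26 weeks, and 17.4% and 17.2% at 10 weeks. Mybpc1, lower in KO than in WT mice at both ages, was 0.86 and 0.83 higher in Mu-RE than in KO mice at 10 and 26 weeks. It was also 1.02 higher in RE-RE than in Br-RE mice at 10 weeks, where 4 of the 7 counterparts were higher, against 14.8% of all genes. In Old mice Myl3 (-0.72) and Actn2 (-0.45) were lower than in WT mice of 26 weeks.

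Other contractile and metabolic genes were counted from lists written by function, to be read against 20.3% of all genes higher and 21.6% lower in KO mice at 10 weeks, and 24.4% and 22% at 26 weeks. Of 11 genes of fast-fibre calcium handling and energy supply, 8 were higher and 1 lower in KO than in WT mice at 10 weeks, led by Ampd1, muscle AMP deaminase (0.75), and Casq1, the calcium store protein of the fast sarcoplasmic reticulum (0.47). The median of the list was 0.32, against -0.00175 over all genes. At 26 weeks 0 were higher and 2 lower, Eno3 (muscle enolase, -0.58) and Pvalb (parvalbumin, -0.43), with a list median of -0.03, against 0.00351 over all genes. In Mu-RE against KO mice of 10 weeks 1 of the 11 was higher and 6 were lower, led by Cacna1s, the muscle calcium channel (-0.53). Of all genes 17.4% were higher and 17.2% lower in that comparison. Of 15 other thin filament genes 4 were higher and 4 lower in KO mice at 10 weeks, with Lmod2, an actin nucleator, at -1.40 and Tpm2, beta-tropomyosin, at 0.28, and 7 were higher and 3 lower at 26 weeks. The counts of 10 weeks are near the shares over all genes, and the medians of the list were 0.00411 and 0.07. Of 19 other Z-disc genes 1 was higher and 9 lower at 10 weeks, and 11 were higher and 4 lower at 26 weeks, with Tcap, the titin cap, lower at both ages (-1.40 and -1.89). The medians of the Z-disc list were -0.26 and 0.25, and Tcap was 1.23 and 1.59 higher in Mu-RE than in KO mice at 10 and 26 weeks. Of 10 thick filament genes 2 were higher and 4 lower at 10 weeks, led by Mybph (2.96), a relative of myosin binding protein C, and 3 were higher and 1 lower at 26 weeks, led by Myom3, an M-band protein (3.3). Of 3 myosin heavy chains tested, Myh1 (-1.04) and Myh2 (-1.25) were lower and 1 was higher in KO mice at 10 weeks. At 26 weeks Myh2 was higher (1.02) and none was lower. Of 21 fibre type regulators 4 were higher and 8 lower in KO mice at each age. Tead4, which binds MCAT sites, was 1.93 and 1.65 higher in KO than in WT mice at 10 and 26 weeks, and differed by -1.96 and -1.61 in Mu-RE against KO mice.

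Summed markers of endothelial cells, macrophages and fibroblasts were low beside the fast-fibre genes. Those of red blood cells reached 3378 FPKM in Old mice on TRF, where their median was 192.3 FPKM. The counts below are to be read against 20.3% of all genes higher and 21.6% lower in KO against WT mice at 10 weeks. The shares were 24.4% and 22% at 26 weeks, and 11.2% lower in Old against WT mice of 26 weeks. Summed over 4 endothelial markers, KO mice of 10 weeks had 42.1 to 73.9 FPKM with a median of 61.2, against 29.8 to 60.4 with a median of 46.0 in WT mice, and 3 of the 4 were higher. Over 7 macrophage markers KO mice had 3.02 to 15.6 FPKM with a median of 7.89, against 9.07 to 32.4 with a median of 16.1 in WT mice, and all 4 that were tested were lower. Over 5 fibroblast markers Old mice had 17.6 to 200.1 FPKM with a median of 55.9, against 58.0 to 214.3 with a median of 114.8 in WT mice of 26 weeks, and all 4 tested were lower. The 8 fast-fibre genes summed to a median of 34860 FPKM in KO and 29020 FPKM in WT mice of 10 weeks. At 26 weeks all 4 endothelial markers were higher in KO mice (summed median 54.8 FPKM, range 30.9 to 94.3, against 31.7 FPKM, range 13.6 to 57.0, in WT mice). Of the tested macrophage markers 3 of 4 were lower (3.47 to 13.6 FPKM with a median of 6.73 in KO mice, against 4.86 to 18.9 with a median of 12.2 in WT mice). Of the tested fibroblast markers 2 of 4 were lower (25.2 to 121.5 FPKM with a median of 64.3 in KO mice, against 58.0 to 214.3 with a median of 114.8 in WT mice). Of 3 satellite cell markers 2 were in the table, and neither passed the filter on low values. The part of these other cells in the results was not tested.

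Genes outside the list with the most similar course over the 15 group means were found by Pearson r. The mean of the 8 members was matched best by Fam118b (0.950), Cenpv (0.934), Dtd1 (0.929), Rex1bd (0.919) and Eef1b2 (0.918). Over the 11 groups without Br-RE and RE-RE, whose values appear centred, 4 of these 5 were again among the first 5. Mylpf was matched by Araf (0.989 over 15 groups and 0.990 over 11), Actn3 by Srpr (0.913), Mybpc2 by Slc44a2 (0.879) and Tpm1 by Gpr180 (0.948). Tnni2 was matched by Nudt6 (0.962), Tnnt3 by Osgep (0.928), Myl1 by Gm6136 (0.917) and Tnnc2 by Taz (0.952). Over the 11 groups the best match changed for Tnnt3 (Ppdpf), Myl1 (1190007I07Rik) and Tnnc2 (Nutf2-ps1), and stayed the same for the others. Each of these r values is the highest among the tested genes outside the list.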

How the data were processed

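Tibialis anterior RNA was sequenced as 150-base pairs. The submitters' processing notes list, with no roles, edgeR 3.30.0, featureCounts 1.6.2, limma 3.44.1, HISAT2 2.1.0, Trim Galore 0.5.0, FastQC 0.11.8 and the build GRCm38. The authors deposited log2 FPKM values. A lowest gene mean of -6.64 matches an offset of 0.01 FPKM. In every gene, female and male means were equal to within 1e-05 over 259 libraries and within the 47 and 46 Br-RE and RE-RE libraries of 10 and 26 weeks, so sexes were not compared. Depth was recovered from the steps of single reads; in the median library 93.6% of low values came out whole, to within 0.1 read.

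Exon lengths, coordinates and overlaps came from GENCODE M21, and promoters from RefSeq. Models (limma 3.58.1 in R 4.3.3, trend and robust) held a level, a 24 h cosine and sine per group, and sex. Levels were tested by limma's moderated test, two-sided, and rhythms by its F test, over genes with a mean of at least 0. Calls are adjusted p under 0.05 over 9862 genes. The tables used Python 3.11.15 with pandas 2.3.3. The code was tested on simulated data. Members and lists were chosen with earlier results of these data known. All 8 members are named in each comparison of level between 2 groups; interactions and rhythms name those called, with some of the others. List genes named are slow counterparts or among the 2 with the smallest p in that comparison, and not every list is named in each. The 5 genes most like the members' mean are named. The series text calls the samples biological replicates. Alternatives were no filter, an offset of 1 FPKM, centring on the library median, scaling to the library sum, the length slope as covariate, time as a factor, a replicate block, animals left out, and 1 WT library left out; a sign change counts where either fit calls the gene. Replicate numbers are running numbers of animals, the labels do not give them as pairs, and animals were treated as unpaired. Same-numbered animals of 2 groups had a median r between -0.054 and 0.163, by comparison. Up to 18 of 24 such pairs correlated over 0.1 (Old mice, TRF against ALF), and the reason was not tested.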

Additional observations from a re-analysis of the deposited data

Results flagged for a closer look

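The following results differ between groups by a tested interaction in limma. The effect of genotype (KO minus WT) at 26 weeks less that at 10 weeks was -0.507 for Tpm1, -0.504 for Actn3, -0.435 for Tnni2, -0.324 for Mybpc2 and -0.308 for Tnnt3 on the log2 scale. The effect of feeding (TRF minus ALF) in KO mice less that in WT mice was 0.398 for Myl1 and 0.369 for Tnni2. Both feeding differences were lost with the length slope in the fit and under scaling to the library sum, where Actn3 (-0.371) and Mybpc2 (-0.508) were called instead.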

How the results depend on the processing

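Counts below are of the 8 genes called. Scaling to the library sum of FPKM moved the count to 4 for Mu-RE against WT at 26 weeks (1 before), 6 for RE-RE against Br-RE at 26 weeks (3), 5 for TRF against ALF in WT (2), 2 for TRF in KO (1), 5 for Old against WT (3), 2 for WT at 26 against 10 weeks (5), 2 for age by genotype (5), 1 for feeding in Old against WT (0) and 0 for rhythm in WT on TRF (1). For feeding in KO against WT the count stayed at 2 but the genes changed, to Actn3 and Mybpc2 in place of Myl1 and Tnni2. That scaling reversed Actn3 in KO against WT at 26 weeks (0.24), Tnnt3 in Mu-RE against WT at 26 weeks (0.17) and in RE-RE against Br-RE at 26 weeks (-0.15), Tnni2 (0.097), Tnnt3 (0.27) and Tpm1 (0.22) for TRF in WT, and Tnnt3 (-0.0341), Myl1 (-0.0162), Actn3 (-0.16) and Mybpc2 (-0.19) in WT at 26 against 10 weeks. It shifts the median of all genes by 0.25 for KO against WT at 26 weeks, by 0.34 for TRF in WT and by -0.30 for WT at 26 against 10 weeks. With the length slope the count was 2 for Mu-RE against WT at 26 weeks, 1 for TRF in WT, 0 for TRF in Mu-RE (1), 0 for feeding in KO against WT (2), where Tnni2 reversed to -0.0358, 0 for rhythm in Br-RE at 10 weeks (6), 1 for rhythm in WT at 10 weeks (0) and 0 for rhythm in WT on TRF (1). Median centring gave 2 for Mu-RE against WT at 26 weeks and 4 for feeding in KO against WT, and time as a factor gave 2 for Mu-RE against WT at 26 weeks and 4 for TRF in Mu-RE. Apart from the shifts of the scaling, the cause was not tested.

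The labels do not give replicate numbers as pairs of animals. A replicate block in place of the time terms gave 2 for Mu-RE against WT at 26 weeks (1) and 2 for TRF in Mu-RE (1), 4 for KO against WT at 10 weeks (5), 5 for Mu-RE against WT at 10 weeks (6), 4 for RE-RE against Br-RE at 10 weeks (6) and 2 at 26 weeks (3); the other counts were equal. Leaving out animal 1, 2, 3 or 4 of every time point gave counts of 4 to 5 for KO against WT at 10 weeks and 2 (without animal 1) to 4 at 26 weeks. They were 2 (without 2 or 3) to 4 for Mu-RE against KO at 10 weeks and 1 (without 2 or 4) to 2 at 26 weeks, and 2 (without 3) to 6 for Mu-RE against WT at 10 weeks. RE-RE against Br-RE had 2 (without 3) to 5 at 10 weeks and 1 (without 1 or 4) to 3 at 26 weeks. TRF had 1 (without 1, 3 or 4) to 2 in WT, 0 (without 1, 2 or 3) to 2 (without 4) in Mu-RE and 0 (without 2) to 1 in KO. Old against WT had 1 (without 1 or 3) to 4, WT at 26 against 10 weeks 3 (without 3) to 6, KO at 26 against 10 weeks 1 throughout, age by genotype 3 (without 1) to 5 and feeding in KO against WT 0 (without 1 or 2) to 3. Rhythm had 0 (without 2) to 4 in Br-RE at 10 weeks and 0 (without 3 or 4) to 2 (without 2) in WT on TRF. Under sum scaling the calls over all genes were 2383 higher and 1623 lower for KO against WT at 10 weeks (1999 and 2128 before), 1468 and 831 for Mu-RE against WT at 10 weeks (1242 and 1369), 6367 and 189 at 26 weeks (1616 and 1426), 606 and 4393 for RE-RE against Br-RE at 26 weeks (1623 and 1859), 396 and 633 for TRF in Mu-RE (893 and 776), 733 and 165 in KO (471 and 925), and 640 and 2013 for KO at 26 against 10 weeks (1466 and 1028). Depth limits Tnnc2, at 1.81 FPKM, more than the other 7 genes.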
